A study of Mus musculus with 80 samples.

Results

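The 10 genes described here encode the nuclear receptors of the PPAR family (Ppara, Ppard, Pparg) and of the ERR family (Esrra, Esrrb, Esrrg), the PGC1 coactivators (Ppargc1a, Ppargc1b), the brown fat coregulator Prdm16 and the corepressor Nrip1, also called RIP140. They were taken by their gene symbols and are 10 of 32764 named genes in RNA-seq read count tables. The tables cover 4 tissues of male C57BL/6J mice: liver, skeletal muscle, brown fat (BAT) and the inguinal white fat depot (iWAT). Each tissue held 5 libraries of each of 4 genotypes, 80 libraries in all: WT, mice without the hormone FGF21 (FGF21 KO), mice without the mitochondrial uncoupling protein UCP1 (UCP1 KO), and mice without both (dKO). All mice, controls included, were bred and raised at 30 °C, moved to room temperature at 10 to 12 weeks of age and fed a high-fat diet from then on for 3 weeks, and their tissues were taken after 2 to 3 h without food. Every deletion was present in the whole body, and none was limited to fat. The sample labels spell the combined genotype as UCP1/FGF12, whereas the study describes loss of UCP1 and FGF21. No label ties libraries to a shared mouse, and the p-values below measure only the spread between these libraries.

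PPARs bind DNA together with a retinoid X receptor, at paired AGGTCA elements, and are switched on by fatty acids. PPARα and PPARδ drive genes of fatty acid oxidation, and PPARγ drives fat cell formation and lipid storage. PGC1α and PGC1β do not bind DNA themselves but dock on PPARs and on ERRs, which bind TCAAGGTCA and switch on genes of the citric acid cycle and the respiratory chain. In fat, Prdm16 favours the brown and beige programme, Nrip1 holds oxidative genes down, and PGC1α rises with cold to support mitochondrial growth and heat production.

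Sequence is shown first for Esrrb, Esrra and Ppara, which were called in a fat depot below, for Ppargc1a, the coactivator most alike to Ppara across iWAT libraries, and for Pparg, the only one with a searched element. RefSeq promoters (250 bases before to 50 after a start site, build GRCm38.p6) were given for 9 of the 10 genes, with 16 entries, since some genes have several starts. The table was searched on both strands for the PPAR and ERR element AGGTCA (held by 16.3% of all 32851 promoters), the ERR element TCAAGGTCA (0.423%), a direct repeat of AGGTCA with any base between (DR1, 0.0396%), and the cAMP response element TGACGTCA (1.79%). Every ERR element and every DR1 also holds AGGTCA, so the searches overlap. Of these, only AGGTCA was found in the 16 entries, in 2 of the Pparg starts, beginning 28 and 9 bases before the start. The stretches below run 5′ to 3′ toward the start site. Each upstream stretch is the longest run of the 250 bases without a GENCODE exon, whereas both Pparg stretches lie within annotated exons. Capitals mark a GC box (GGGCGG on either strand, in 32.7% of the 250 bases before all starts) in the upstream stretches, and the AGGTCA element in the Pparg stretches. No TATA box (TATAAA, 12.4% of all) lay in the upstream stretches shown.
Esrra upstream (chr19:6921814-6922058, minus strand): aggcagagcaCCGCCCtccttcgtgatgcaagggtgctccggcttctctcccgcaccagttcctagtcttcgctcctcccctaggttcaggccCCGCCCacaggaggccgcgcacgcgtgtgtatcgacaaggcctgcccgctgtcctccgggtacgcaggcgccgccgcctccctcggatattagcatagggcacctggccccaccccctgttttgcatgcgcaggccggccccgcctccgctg
Esrrb upstream (chr12:86360867-86361116, plus strand): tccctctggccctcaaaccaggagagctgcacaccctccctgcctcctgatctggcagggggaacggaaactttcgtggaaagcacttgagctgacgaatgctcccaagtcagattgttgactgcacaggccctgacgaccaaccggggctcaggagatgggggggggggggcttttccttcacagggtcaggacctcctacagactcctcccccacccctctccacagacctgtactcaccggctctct
Ppargc1a upstream (chr5:51567727-51567975, minus strand): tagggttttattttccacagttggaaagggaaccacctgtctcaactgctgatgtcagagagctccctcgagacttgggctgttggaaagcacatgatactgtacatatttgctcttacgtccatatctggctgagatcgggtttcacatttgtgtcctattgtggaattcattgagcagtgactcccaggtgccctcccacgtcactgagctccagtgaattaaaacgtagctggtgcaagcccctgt
Ppara upstream (chr15:85735714-85735775, plus strand): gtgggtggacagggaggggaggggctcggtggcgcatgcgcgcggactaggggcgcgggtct
Pparg entry 1, AGGTCA element (chr6:115361106-115361131, plus strand): ccgccgcctcAGGTCAgagtcgcccc
Pparg entry 2, AGGTCA element (chr6:115362330-115362355, plus strand): ggacgcgaggAGGTCAagaaggggcc
The 245 bases before Esrra held 2 GC boxes and 22 CpG pairs, with 68.6% G and C. The 250 bases before the first Esrrb start held no GC box, 6 CpG pairs and 60.8% G and C, and those before Ppargc1a held no GC box, 5 CpG pairs and 48.2% G and C. For Ppara the longest run outside exons, next to the start, was 62 bases, with 75.8% G and C. The full 250 bases before the Ppara start held 2 GC boxes, neither within that run. The 300-base Ppara promoter held 74.7% G and C, against a median of 52.7% over all promoters. In the windows of Ppara, Ppargc1a, Esrra and Esrrb none of AGGTCA, TCAAGGTCA, DR1 and TGACGTCA was found.

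Total counts ran from 28691377 to 50380696 per library (median 38022853), deep enough that all 10 genes passed the low-count filter in every comparison. Values within a tissue are counts per 1000000 TMM-scaled library counts (CPM), and values across tissues or between genes are CPM per kilobase of exon (RPKM). Differences are log2 fold changes with standard errors (SE) from edgeR's quasi-likelihood test. A gene was called at a Benjamini-Hochberg adjusted p under 0.01 over all genes tested. Fgf21 checks the labels: BAT of WT held 7 to 10 counts of it, FGF21 KO 0 to 2, dKO 0 to 3, and UCP1 KO 353 to 1728. Ucp1 counts, taken over the whole gene, cannot check the deleted part: in BAT they were 530 to 1238 CPM in UCP1 KO against 3205 to 7555 in WT, but in iWAT they were 102 to 735 CPM in the libraries labelled UCP1 KO against 2.64 to 16.7 in WT. Fat cell markers were high in both depots in every group (summed CPM of the 5 markers 4129 to 22144). Marker genes of other cells were not spread evenly. A skeletal muscle score (mean log2 CPM of 10 markers) exceeded 7 in 4 of 20 BAT libraries (UCP1 KO replicate 2 and dKO replicates 1, 3 and 4) and in 3 of 20 iWAT libraries (WT replicate 5, UCP1 KO replicate 1 and FGF21 KO replicate 5). A lymph node score (8 markers) exceeded 4 in 9 of 20 iWAT libraries: 2 WT, 4 FGF21 KO, 1 UCP1 KO and 2 dKO. In bulk tissue, fewer cells of a type and less RNA per cell cannot be told apart.

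In WT mice the question was where each regulator is expressed. BAT held the highest mean level, or one not separated from the highest, of 7 of the 10, while iWAT held the lowest mean of 6 (Ppara, Ppargc1a, Ppargc1b, Esrra, Esrrb and Esrrg). Between BAT and iWAT all 10 genes were called, 9 higher in BAT and Nrip1 lower, with a median log2 difference of 2.47. That comparison calls 60.7% of the 16886 genes tested.

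Ppara, the fatty acid sensor of liver, reached 143 ± 6.73 RPKM (SD, n = 5) in BAT and 144 ± 35.2 in liver, a log2 difference of -0.01 (SE 0.22), so the order of those 2 tissues is not resolved. Muscle followed with 12.8 ± 4.24 RPKM and iWAT with 2.67 ± 0.856. BAT stood 53.5-fold above iWAT (log2 difference 5.74, SE 0.28, adjusted p = 7.98e-13, edgeR), and no BAT library (133 to 151) came near an iWAT library (1.88 to 3.85).

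Pparg, the receptor that maintains fat cells, was far more abundant in both fat depots than in liver and muscle, at 90.9 ± 8.76 RPKM in BAT and 42.1 ± 17.5 in iWAT against 2.13 ± 0.919 in liver and 2.12 ± 0.724 in muscle. Its BAT level exceeded its iWAT level 2.16-fold (adjusted p = 0.00161, edgeR), with no overlap between the depots' libraries, and liver and muscle were not separated (log2 difference 0.00, SE 0.30). Ppard was the most even of the family, at 4.28 ± 0.16 RPKM in muscle, 3.37 ± 0.116 in BAT, 2.66 ± 0.15 in iWAT and 1.23 ± 0.259 in liver. Each step of that order was called (adjusted p of 0.00261, 0.00322 and 2.07e-09 by edgeR).

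The coactivators split between the tissues. Ppargc1a, the cold- and exercise-responsive coactivator, was at 13.2 ± 4.34 RPKM in muscle and 12.1 ± 8.25 in BAT, which overlapped (log2 difference of BAT minus muscle -0.13, SE 0.34). Liver followed with 1.83 ± 0.443 and iWAT with 1.01 ± 0.253, a step that was not called (adjusted p = 0.0309, edgeR). The WT BAT libraries spread widely for this gene, from 5.06 to 25.1 RPKM. Ppargc1b was by contrast mainly a BAT transcript: 18 ± 2.89 RPKM there, 1.72 ± 0.452 in liver, 1.71 ± 0.412 in muscle and 0.757 ± 0.437 in iWAT. Its BAT level was 10.5-fold above liver (adjusted p = 6.01e-09, edgeR), and liver and muscle did not separate (log2 difference 0.01, SE 0.30).

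Among the ERRs, Esrra was the most abundant in every tissue. It was at 25.6 ± 2.37 RPKM in BAT and 19.7 ± 2.72 in muscle, whose libraries overlapped (adjusted p = 0.0114, edgeR), then 6.27 ± 1.16 in liver and 3.86 ± 0.587 in iWAT. Esrrg, an ERR of oxidative tissues, was at 4.9 ± 1.52 RPKM in muscle and 4.05 ± 0.462 in BAT, not separated (adjusted p = 0.401, edgeR), and far lower in liver (0.361 ± 0.113) and iWAT (0.166 ± 0.0887). Esrrb, best known from embryonic stem cells, was the least abundant of the family, with 1.09 ± 0.529 RPKM in muscle, 0.143 ± 0.0498 in BAT, 0.139 ± 0.0347 in liver and 0.0299 ± 0.0252 in iWAT. BAT and liver did not separate for Esrrb (log2 difference 0.04, SE 0.41), and its 2 highest iWAT libraries (0.0363 and 0.071 RPKM) were WT replicates 4 and 5, which also had skeletal muscle scores of 5.78 and 9.46 where the other 3 were at 1.24 to 2.62, and lymph node scores of 6.41 and 6.86 where the other 3 were at 0.25 to 1.68. The part of muscle and lymph node RNA in those values was not tested.

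Prdm16 followed the fat depots, at 3.05 ± 0.708 RPKM in BAT and 1.22 ± 0.321 in iWAT, then 0.61 ± 0.14 in muscle and 0.0629 ± 0.0187 in liver, with every step called. Nrip1 ran the other way and was the only one of the 10 lower in BAT than in iWAT: 0.525 ± 0.0859 RPKM in BAT against 1.74 ± 0.474 in iWAT, 1.7 ± 0.292 in muscle and 0.56 ± 0.23 in liver. The BAT level fell by 1.73 on the log2 scale (SE 0.26, adjusted p = 6.42e-06, edgeR) against iWAT, and neither iWAT and muscle nor liver and BAT were separated.

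The remaining WT comparisons called fewer of the 10, and 64.1% to 74.9% of all genes. BAT against liver called 7, all higher in BAT (67.3% of all genes tested), and BAT against muscle called 7, of which 4 were higher in BAT and Ppard, Esrrb and Nrip1 lower (64.1%). iWAT against liver called 9, with 4 higher in iWAT (Ppard, Pparg, Prdm16, Nrip1; 74.9%), and iWAT against muscle called 9, with only Pparg and Prdm16 higher in iWAT (74.4%). Liver against muscle called 8, with only Ppara higher in liver (73.8%).

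**Figure D1:**
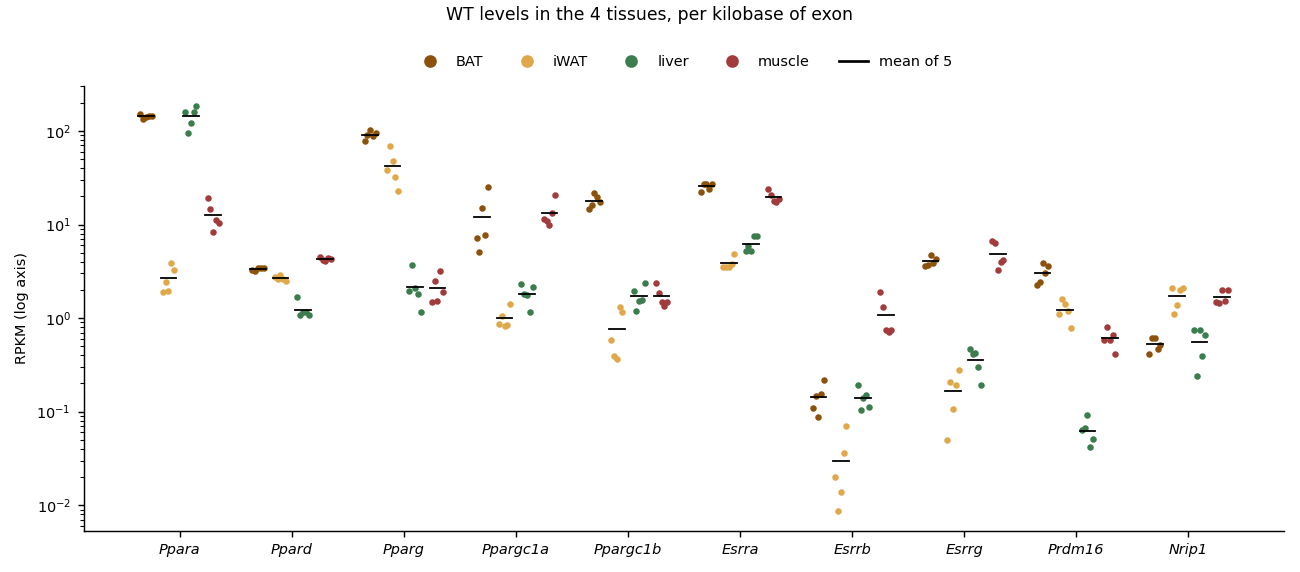
RPKM (log axis) of the 10 regulators in the 5 WT libraries of each tissue, with a bar at the mean. The iWAT means lie lowest for 6 genes, with points overlapping those of liver for Ppargc1a, Ppargc1b and Esrrg, BAT and liver points overlap for Ppara, and the Nrip1 points of BAT lie below those of iWAT.

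Loss of UCP1 in BAT, with Fgf21 intact, was followed by opposite changes in a receptor and a coactivator. Esrrb rose 4.57-fold and Ppargc1b fell 1.87-fold, while Esrra, Esrrg, Ppargc1a, Prdm16 and Nrip1 did not pass even an unadjusted threshold. These 2 of 10 calls (1 higher, 1 lower) stand against 25.2% of the 15729 genes tested in this tissue (13.8% higher, 11.4% lower), so the share called is near the background.

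Esrrb read 0.7, 0.948, 0.559, 0.976 and 1.39 CPM in the 5 WT libraries (16 to 48 counts) and 3.19, 4, 3.32, 5.57 and 4.93 CPM in UCP1 KO (119 to 286 counts). Every UCP1 KO library lay above every WT library. The change was 2.19 on the log2 scale (SE 0.25, adjusted p = 4.92e-06, edgeR). Per kilobase, on the scale of the BAT libraries alone, the mean rose from 0.151 to 0.695 RPKM, still below Esrra (25.4) and Esrrg (3.96) in the same UCP1 KO libraries. Esrrb lies on chromosome 12 (GRCm38, 86361117 to 86521628, plus strand).

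Skeletal muscle expresses more Esrrb than BAT, and muscle markers were higher in UCP1 KO BAT: all 10 had a mean above WT, with a summed level of 60.2 to 8760 CPM against 30.5 to 122 in WT and none at 0. Without the 4 libraries over a muscle score of 7 the Esrrb difference was 2.21 (SE 0.28, adjusted p = 3.6e-05, edgeR). UCP1 KO replicates 1 and 5, with muscle scores of 2.23 and 2.07 inside the WT range of 1.22 to 3.13, had 3.19 and 4.93 CPM of Esrrb. The part of other cells in the difference was not tested beyond these values. Over the 20 BAT libraries Esrrb correlated with the muscle score at 0.52, with the fat cell score at -0.65 and with the lymph node score at 0.42, a description of points that share genotype and depth.

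Ppargc1b, the BAT-enriched coactivator, read 62, 67.7, 92.3, 82.4 and 74.1 CPM in WT BAT and 49.2, 34.2, 60.4, 34.4 and 24.2 CPM in UCP1 KO. The groups did not overlap, although the highest UCP1 KO library came within 2 CPM of the lowest WT library. Ppargc1b fell by 0.90 on the log2 scale (SE 0.21, adjusted p = 0.00267, edgeR). The call held without the libraries of high muscle score (-0.85, SE 0.21, adjusted p = 0.00464, edgeR) and was lost when only the 2 genotypes were fitted (-0.90, adjusted p = 0.0109, edgeR). Fat cell markers had no mean above WT in UCP1 KO BAT (0 of 5, summed 5376 to 12640 CPM against 10749 to 12052), and Ppargc1b correlated with their score at 0.66 and with the lymph node score at -0.68 over the 20 libraries. Their part in the result was not tested.

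Ppara read 611, 539, 572, 580 and 591 CPM in WT BAT and 501, 219, 276, 365 and 417 CPM in UCP1 KO. All 5 UCP1 KO libraries lay below WT and spread far more widely (SD 112 against 26.7), and the difference of -0.70 (SE 0.23) missed the threshold (adjusted p = 0.0208, edgeR) and passed it by DESeq2 (adjusted p = 0.00772), which called 3 of the 10 and 30.3% of all genes. Of 10 genes, 3 had groups that did not overlap (Ppara, Ppargc1b and Esrrb), near the 23.5% of all genes tested with no overlap. Ppard (22.9 ± 3.16 CPM against 26.7 ± 0.864 in WT) and Pparg (233 ± 37.1 against 283 ± 26.9) were also lower by mean, with adjusted p of 0.0229 and 0.0362 by edgeR, and Pparg passed with the muscle score as a covariate (-0.38, adjusted p = 0.00878, edgeR). Lymph node markers were low in BAT (7 of 8 means above WT, summed 3.51 to 7.85 CPM against 3.42 to 4.48) and liver markers were at 21.9 to 163 CPM against 32.4 to 284, with 4 of 5 means above WT. Ppara correlated with the lymph node score at -0.67 and Pparg at -0.65 over the 20 libraries, and the part of these markers in the results was not tested.

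Ppargc1a, the coactivator most often followed in brown fat, did not separate: 93.5, 53, 85, 66.9 and 81.6 CPM in UCP1 KO lay inside the WT range of 35.3 to 175 CPM (log2 difference -0.15, SE 0.31). Esrra was at 112 ± 5.23 CPM in UCP1 KO and 118 ± 10.9 in WT (-0.09, SE 0.09), and Esrrg at 24.6 ± 4.66 and 26.5 ± 2.97 (-0.11, SE 0.16). Prdm16, which shares 109 exonic bases with B230104I21Rik on the other strand, was at 23.7 ± 6.81 and 30 ± 6.9 CPM (-0.34, SE 0.25), and Nrip1 at 7.74 ± 2.58 and 6.34 ± 1.04 (0.29, SE 0.21).

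The same deletion in mice already without Fgf21 (dKO against FGF21 KO) gave the Esrrb rise again. The FGF21 KO libraries read 1.43, 1.15, 1.45, 0.554 and 1.09 CPM and the dKO libraries 3.34, 2.77, 2.52, 3.35 and 3.55 CPM. The groups did not overlap, with a log2 difference of 1.44 (SE 0.25, adjusted p = 0.000418, edgeR). It was the only call among the 10, higher in dKO, where 13.5% of all genes were called and 6.74% were higher.

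Ppargc1b in dKO BAT read 61.4, 37.1, 59.1, 51.1 and 32.9 CPM, every library below those of FGF21 KO (95, 83.7, 76, 81.9 and 62.2 CPM), but the log2 difference of -0.72 (SE 0.21) had an adjusted p of 0.0169 by edgeR and 0.00482 by DESeq2, which called 2 of the 10 (Esrrb and Ppargc1b) and 19.5% of all genes. Ppargc1a was higher in all 5 dKO libraries (81.5 to 128 CPM) than in FGF21 KO (46.3 to 72.1 CPM), with a difference of 0.68 (SE 0.31) that was not called (adjusted p = 0.105, edgeR). Summed muscle markers were 97.9 to 4668 CPM in dKO and 33.8 to 424 in FGF21 KO, with 10 of 10 means above WT in each. Summed lymph node markers were 2.03 to 12.5 CPM in dKO (7 of 8 means above WT) and 2.13 to 3.47 in FGF21 KO (0 of 8). Liver markers were 59.2 to 110 and 55.6 to 126 CPM, with 4 of 5 means above WT in each. The part of lymph node and liver markers in the results was not tested. Without the 4 libraries of high muscle score, which leaves 2 dKO libraries, 3 genes were called in place of 1 (Esrrb, Ppara and Ppargc1b), where that fit called 11.9% of all genes.

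The effect of UCP1 loss in BAT was not shown to depend on Fgf21 for any of the 10. The interaction called 0 of the 10 by edgeR and 0 by DESeq2, and 0% of all genes by edgeR. At an unadjusted p under 0.05 stood 2 (Esrrb, 0.75, SE 0.35, and Nrip1, 0.81, SE 0.30), with 845 of the 15729 genes tested. UCP1 KO against dKO called 0 by either tool (0.0636% of all genes by edgeR), with 0 at an unadjusted p under 0.05 (2035 of all genes). FGF21 KO against WT also called 0 by either tool (0% of all genes by edgeR). At an unadjusted p under 0.05 stood Esrrg (35.3 ± 5.23 against 26.5 ± 2.97 CPM) and Nrip1 (8.91 ± 2.64 against 6.34 ± 1.04), with 1345 of all genes. Over all 4 genotypes Ppargc1b and Esrrb were called (adjusted p of 0.00183 and 2.42e-06, edgeR; 29.7% of all genes).

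**Figure D2:**
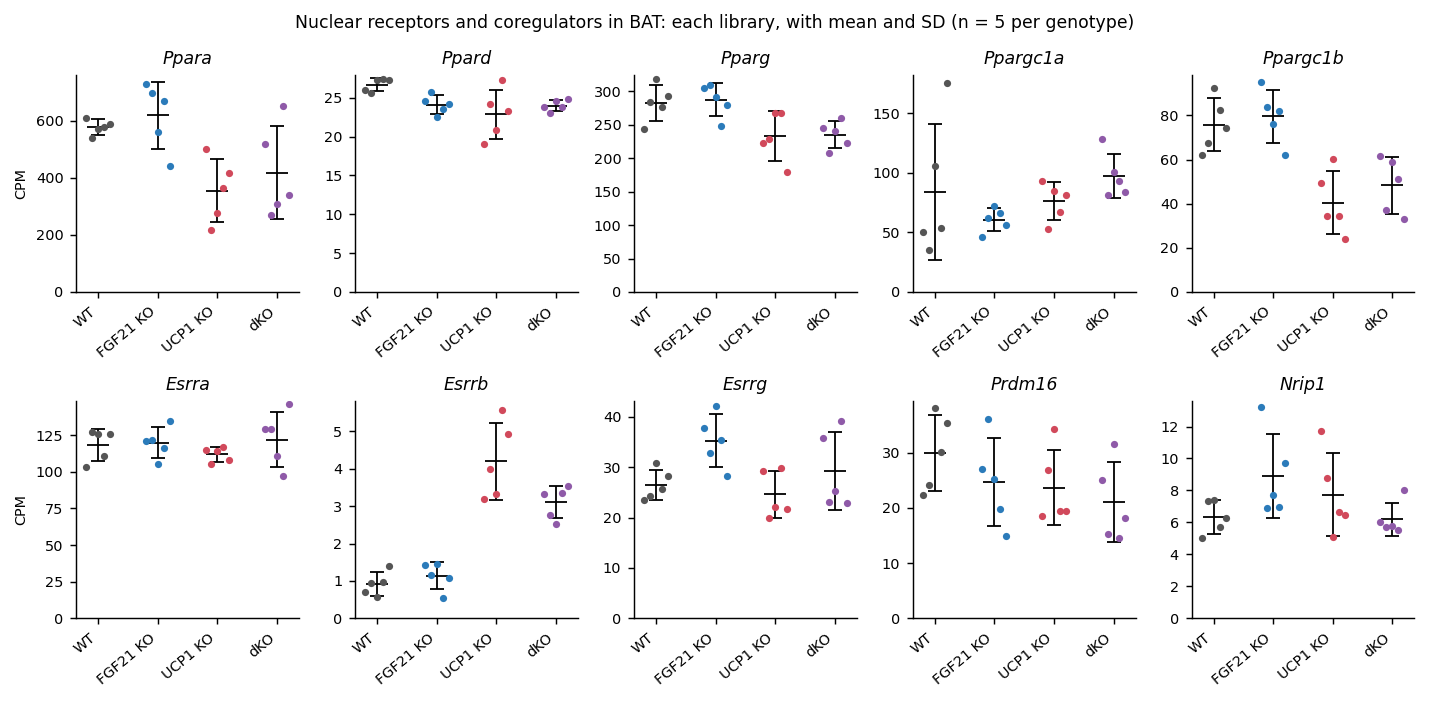
CPM of the 10 regulators in each of the 20 BAT libraries by genotype, with mean and SD (n = 5 per genotype). Esrrb in the UCP1 KO and dKO libraries (2.52 to 5.57) lies above every WT and FGF21 KO library, and Ppargc1b in UCP1 KO lies below every WT library.

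The partners and targets of the regulators in BAT gave a mixed picture in UCP1 KO against WT, where the median of all genes was 0.01 and 13.8% of all genes were called higher and 11.4% lower. Counts of 1 to 3 genes in the lists below are to be read against those shares. Of the 3 RXR genes, which pair with PPARs, Rxra fell (-0.66, SE 0.12, adjusted p = 0.000232, edgeR), from a mean of 95.6 to 60.3 CPM. Of 14 coregulators, Ncoa1, a coactivator, rose (0.52) and Hdac3, a deacetylase of repressor complexes, fell (-0.25), with a list median of 0.08. Of 7 mitochondrial transcription factors, Nrf1 rose (0.57; median 0.04).

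Of 13 tested partners of Prdm16 and brown fat transcription factors, 1 rose and 3 fell (median -0.30). Cebpa, a master factor of fat cells, fell (-1.27, adjusted p = 2.03e-06, edgeR) from 417 to 584 CPM in WT to 145 to 279 CPM in UCP1 KO. Tle3, a corepressor that works with PPARγ, fell (-0.74), Ehmt1, a methyltransferase of the Prdm16 complex, fell (-0.29), and Tbx15, a developmental factor of brown fat, rose (1.84). For Cebpa, Tle3 and Ehmt1 every UCP1 KO library lay below every WT library.

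Targets of PPARα and PPARδ moved both ways: 6 of 24 rose and 3 fell (median -0.04). Acot2, a mitochondrial thioesterase, rose 5.27-fold, with Cpt1a (2.98-fold), Acaa1b (2.86-fold) and Plin2 (2.64-fold), which serve carnitine-linked uptake, peroxisomal oxidation and lipid droplets. The 3 falls were smaller: Acaa2 (-0.52), Cpt1b (-0.41) and Hadhb (-0.31), on the log2 scale. Targets of PPARγ gave 0 rises and 4 falls among 15 (median -0.22): Adipoq, the adipokine (-1.15), Dgat2, of triglyceride synthesis (-0.85), Aqp7, a glycerol channel (-0.47), and Lipe, hormone-sensitive lipase (-0.43).

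Targets of ERR and PGC1 gave 0 rises and 7 falls among 20 (median -0.22), led by the respiratory chain genes Cox6c (-0.83), Ndufa4 (-0.82), Ndufb5 (-0.43) and Sdha (-0.41). Among 9 brown fat genes Elovl3, a fatty acid elongase, rose (3.31) and Pank1 (-0.78), Cox8b (-0.74) and Otop1 (-0.66) fell (median -0.28). Among 8 white fat genes Psat1 rose (2.53) and Igfbp3 fell (-1.56; median -0.32). These lists were compiled with earlier results of the same data known, and their counts describe these libraries.

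In dKO against FGF21 KO, where 13.5% of all genes were called and 6.74% were higher, the same lists gave 1 of 3 RXR genes lower (Rxra), 1 of 13 Prdm16 partners higher and 3 lower, 4 of 24 PPARα and PPARδ targets higher and 1 lower, 1 of 15 PPARγ targets lower (Adipoq) and 4 of 20 ERR and PGC1 targets lower (Cox6c, Ndufa4, Sdha and Ndufs1). Ncoa1 and Nrf1 were higher, Elovl3 and Psat1 higher, and Cox8b and Igfbp3 lower. UCP1 KO against dKO and FGF21 KO against WT called 0 genes of any of these lists (0.0636% and 0% of all genes).

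In iWAT, loss of UCP1 with Fgf21 intact raised Ppara and Esrra. Ppara rose 10.4-fold, to levels that overlapped none of the other 3 genotypes, and Esrra rose 1.89-fold. Ppargc1a, Ppargc1b, Esrrb and Esrrg had means 2.75 to 4.7 times those of WT but were not called by edgeR, and Ppard, Pparg, Prdm16 and Nrip1 were within 1.34-fold of WT. The 2 of 10 calls, both higher, stand against 0.61% of 17380 genes tested (0.593% higher), where DESeq2 called Ppargc1a, Ppargc1b and Esrrg as well, 5 of 10 against 3.49% of all genes. The median log2 difference was 1.19 over the 10 against -0.03 over all genes.

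Ppara read 11.7, 15.3, 12.1, 24.7 and 20.3 CPM in WT iWAT and 76.7, 70.1, 162, 192 and 376 CPM in UCP1 KO. The lowest UCP1 KO library stood well above the highest WT library. The difference was 3.38 on the log2 scale (SE 0.56, adjusted p = 0.00382, edgeR). Its call was lost on leaving out any of WT replicates 1, 2, 3 and 5 or UCP1 KO replicates 4 and 5 (adjusted p up to 0.0193, log2 difference 2.89 to 3.58), and with only libraries of a muscle score at or under 7 (3.65, adjusted p = 0.0105, edgeR). It was lost too when only the 2 genotypes were fitted (3.38, adjusted p = 0.0248, edgeR). On the scale of the iWAT libraries alone, UCP1 KO reached 45.7 ± 32.4 RPKM against 4.38 ± 1.46 in WT.

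Esrra, whose product drives genes of mitochondrial respiration, read 25.1, 25.3, 25.4, 27.9 and 35.1 CPM in WT and 50.5, 40.3, 56.4, 48.9 and 66.5 CPM in UCP1 KO. The groups did not overlap, and the difference was 0.92 (SE 0.14, adjusted p = 0.00197, edgeR). Its call was lost on leaving out WT replicate 1, 2 or 3 (adjusted p up to 0.0124) and when only the 2 genotypes were fitted (0.92, adjusted p = 0.0306, edgeR). Esrra (chromosome 19, 6910977 to 6921813, minus strand) shares 73 exonic bases with Trmt112 on the other strand and 91 with Mir6990, and whether the counting used strand is not given in the sources used here.

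The coactivators of these receptors were higher by mean, without a call by edgeR but with one by DESeq2 (adjusted p of 0.000755 for Ppargc1b and 0.00919 for Ppargc1a). Ppargc1b read 3.77, 2.54, 2.37, 8.65 and 7.51 CPM in WT and 7.93, 9.58, 16, 15.4 and 28.6 CPM in UCP1 KO, overlapping only between UCP1 KO replicate 1 and WT replicate 4 (1.64, SE 0.38, adjusted p = 0.0276, edgeR). Ppargc1a read 9.31, 11.4, 8.93, 9.36 and 15.4 CPM in WT and 23.4, 9.5, 26.9, 29.4 and 60.3 CPM in UCP1 KO (1.46, SE 0.41, adjusted p = 0.0694, edgeR). For Ppargc1a, UCP1 KO replicate 2, the only UCP1 KO library with a high lymph node score, was the library inside the WT range.

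Esrrg read 0.499, 2.08, 1.08, 1.99 and 2.81 CPM in WT and 3.35, 3.98, 8.68, 8.26 and 15.6 CPM in UCP1 KO. The groups did not overlap, yet the difference of 2.23 (SE 0.51) had an adjusted p of 0.0252 by edgeR, and of 0.000325 by DESeq2. Esrrb was near the limit of these counts (3 to 29 counts in WT, 3 to 46 in UCP1 KO), at 0.297 ± 0.25 CPM in WT and 0.889 ± 0.571 in UCP1 KO (1.55, SE 0.64, adjusted p = 0.247, edgeR). Thus 3 of 10 genes had groups that did not overlap (Ppara, Esrra and Esrrg), against 3.83% of all genes tested.

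No difference was detectable for Pparg (208 ± 57.8 CPM in UCP1 KO, 203 ± 84 in WT, log2 difference 0.03, SE 0.46), nor for Prdm16 (22.4 ± 6.55 against 18.6 ± 4.88, 0.26, SE 0.31), Ppard (30.6 ± 3.67 against 32.7 ± 1.77, -0.10, SE 0.10) or Nrip1 (43.9 ± 19.2 against 32.7 ± 8.94, 0.42, SE 0.28). Pparg and Prdm16 instead varied within every genotype: Pparg from 56.8 to 386 CPM in FGF21 KO and from 79.4 to 288 in dKO.

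The iWAT libraries differed in how much lymph node RNA they held, and this moved with Pparg and Prdm16 most. Lymph node markers summed to 9.72 to 1105 CPM in WT libraries, 8.36 to 1539 CPM in UCP1 KO, 9.79 to 1609 CPM in FGF21 KO and 5.51 to 1545 CPM in dKO, with none of the 8 at 0, and 0 of 8 means in UCP1 KO but 8 of 8 in FGF21 KO and dKO were above WT. Over the 20 libraries, Pparg correlated with the lymph node score at -0.86 and with the fat cell score at 0.91, and Prdm16 at -0.75 and 0.88. Ppargc1a correlated with the lymph node score at -0.63, Ppara at -0.53, Esrrb at -0.49, Esrra and Ppard at -0.34, Esrrg at -0.27, Ppargc1b at -0.11 and Nrip1 at 0.00. These correlations describe libraries that share genotype and depth.

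With only libraries of a lymph node score at or under 4, a choice made after the data were seen, UCP1 KO against WT called 4 of the 10: Ppara (3.93, SE 0.49, adjusted p = 0.00249), Esrra (1.12, SE 0.11, adjusted p = 0.0013), Esrrb (2.92, SE 0.42, adjusted p = 0.00318) and Ppargc1b (2.53, SE 0.41, adjusted p = 0.00489), all by edgeR. That fit called 3.73% of all genes. Ppargc1a (1.80, adjusted p = 0.0114) and Esrrg (2.85, adjusted p = 0.0248) were not called by edgeR. That fit left out the FGF21 KO group, which had only 1 library at or under a score of 4. With the score as a covariate in all 20 libraries, Ppara was at 2.93 (adjusted p = 0.00188, edgeR) and Pparg at -0.27 (SE 0.25). Summed muscle markers in iWAT were 30.2 to 9841 CPM in WT and 41.4 to 21624 in UCP1 KO, with 8 of 10 means above WT and none at 0, and liver markers 945 to 2228 against 592 to 3014 CPM, with 3 of 5 means above WT.

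**Figure D3:**
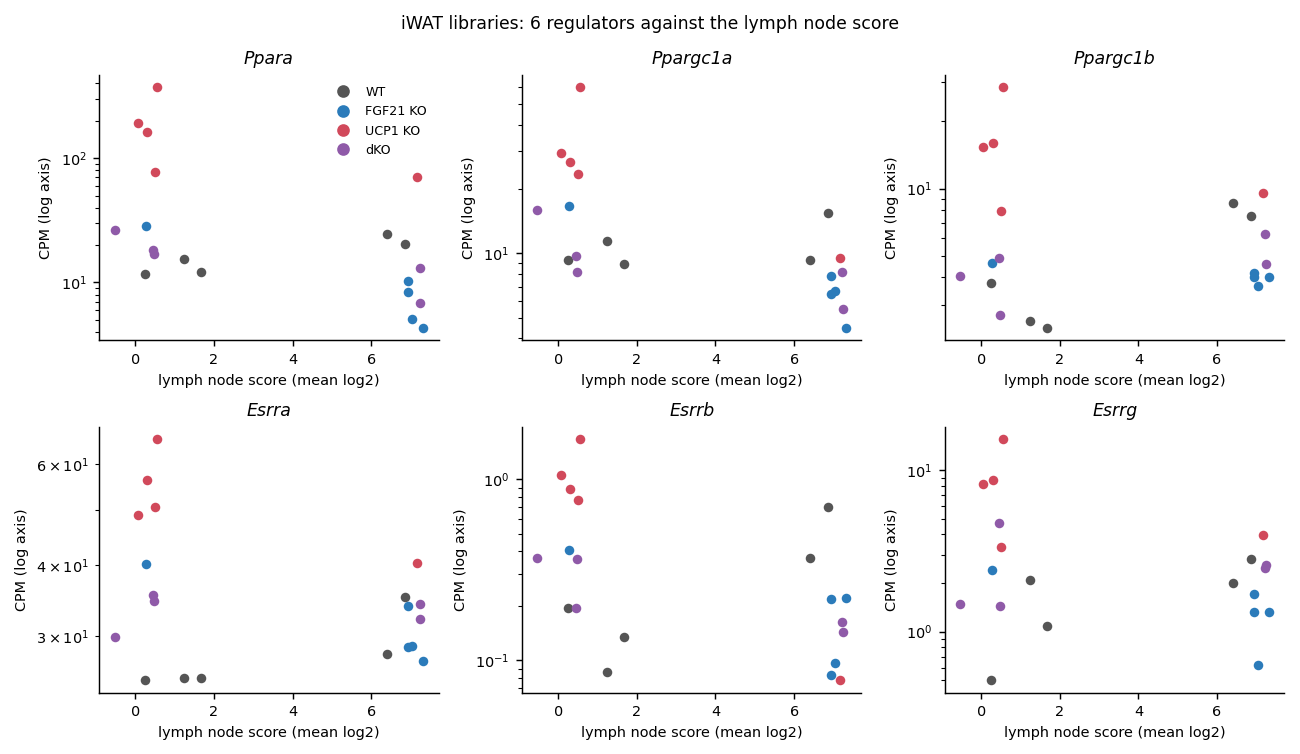
CPM (log axis) of 6 regulators in the 20 iWAT libraries against the lymph node score (mean log2 over 8 markers), coloured by genotype. The UCP1 KO library at a score of 7.16 is the lowest UCP1 KO library for Ppara (70.1 CPM), Esrra (40.3) and Esrrb (0.0775), while the 4 at low scores lie above the low-score libraries of the other genotypes for Ppara.

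Against dKO, which differ from UCP1 KO in Fgf21, Ppara in iWAT was higher in UCP1 KO, a comparison that shares its UCP1 KO libraries with the one against WT. The dKO libraries read 6.84, 18.4, 13, 26.5 and 16.8 CPM, inside or near the WT range, and none reached the lowest UCP1 KO library. The difference was 3.43 (SE 0.57, adjusted p = 0.0041, edgeR), the 1 call of 10, higher in UCP1 KO, against 0.466% of all genes (0.437% higher). It was lost on leaving out any of UCP1 KO replicates 3, 4 and 5 or dKO replicates 1, 2, 3 and 5 (adjusted p up to 0.0194), and when only the 2 genotypes were fitted (3.40, adjusted p = 0.0513, edgeR).

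Esrra in dKO read 32.2, 35.4, 34.2, 29.9 and 34.6 CPM and Ppargc1b 4.58, 4.91, 6.26, 4.04 and 2.71 CPM. Each lay below every UCP1 KO library, with differences of 0.66 (SE 0.13, adjusted p = 0.0166) and 1.78 (SE 0.38, adjusted p = 0.0208) by edgeR that were not called, though DESeq2 called both and Ppargc1a, 4 of 10 with Ppara against 3.13% of all genes. Both became calls on leaving out UCP1 KO replicate 2, together with Ppargc1a. Esrrg in dKO read 2.57, 4.72, 2.47, 1.49 and 1.45 CPM and overlapped UCP1 KO (1.64, SE 0.50, adjusted p = 0.0916, edgeR).

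In iWAT without Fgf21, loss of UCP1 called none of the 10. For dKO against FGF21 KO edgeR and DESeq2 each called 0, where edgeR called 0.0115% of all genes. Ppard (33.7 ± 2.66 against 28.8 ± 3.99 CPM) and Prdm16 (21.7 ± 6.69 against 12.7 ± 6.4) were at an unadjusted p under 0.05, as were 1499 of the 17380 genes tested. Ppara there read 8.45, 28.2, 4.29, 10.2 and 5.12 CPM in FGF21 KO, a range that held all 5 dKO libraries, and the difference was 0.54 (SE 0.52). FGF21 KO against WT called 0 by either tool (0.00575% of all genes by edgeR), with 0 at an unadjusted p under 0.05 (3023 of all genes).

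The interaction, which tests whether the UCP1 effect in iWAT differs with Fgf21, called 0 of the 10 by edgeR and 1, Esrra, by DESeq2, with 0% of all genes called by edgeR and 0.363% by DESeq2. At an unadjusted p under 0.05 stood 5: Ppara (2.84, SE 0.74, adjusted p = 0.203), Esrra (0.85, SE 0.19, adjusted p = 0.138), Ppargc1b (adjusted p = 0.352 by edgeR), Ppargc1a (1.29, SE 0.58) and Ppard (-0.32, SE 0.14). That level was passed by 1734 of the 17380 genes tested. So the called rise of Ppara and Esrra with Fgf21 present was not shown to differ from the change without it by edgeR. Over all 4 genotypes 4 genes were called: Ppara (adjusted p = 0.000212), Esrra (0.00153), Ppargc1b (0.00551) and Esrrg (0.00994) by edgeR, against 1.74% of all genes. Only Ppara and Esrra passed without WT replicate 1, any of UCP1 KO replicates 3, 4 and 5, or any of FGF21 KO replicates 1, 3, 4 and 5.

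**Figure D4:**
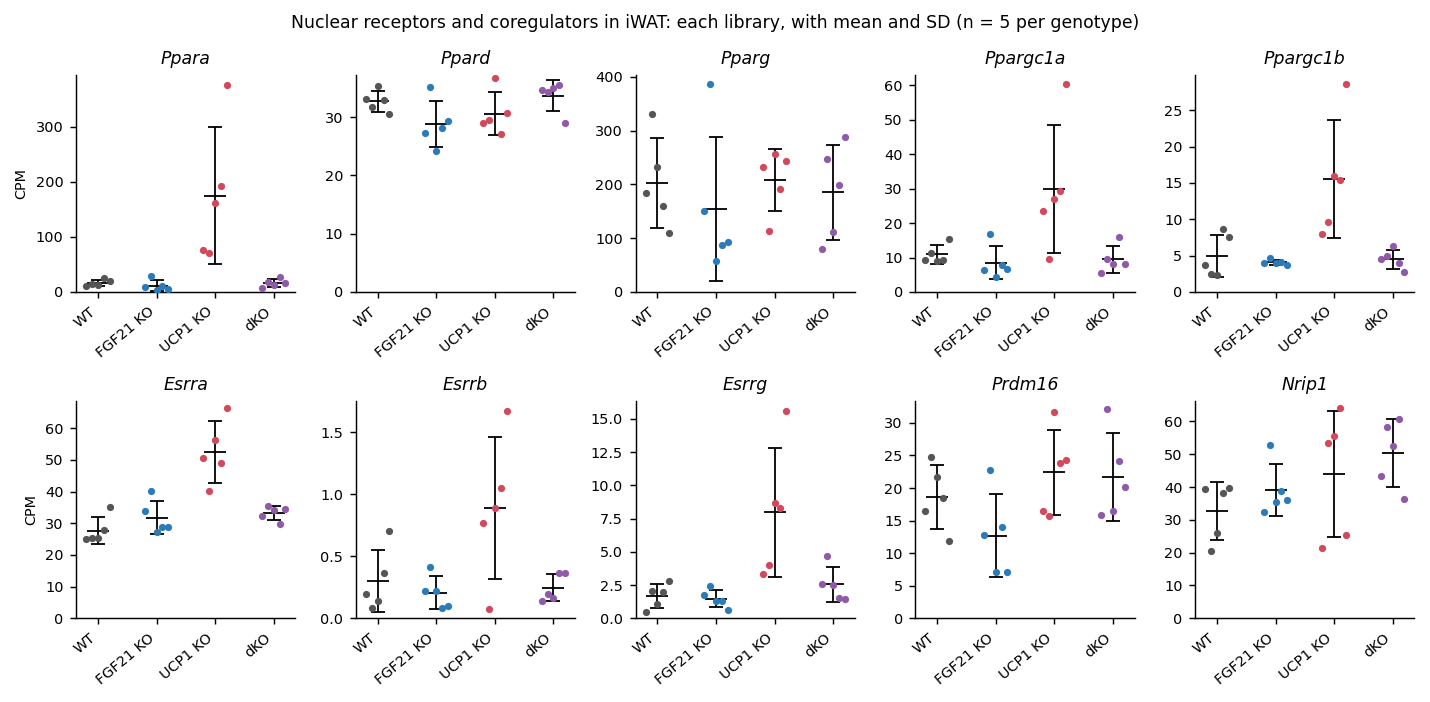
CPM of the 10 regulators in each of the 20 iWAT libraries by genotype, with mean and SD (n = 5 per genotype). The 5 UCP1 KO libraries lie above all others for Ppara (70.1 to 376), while Pparg spreads within each genotype.

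**Figure D5:**
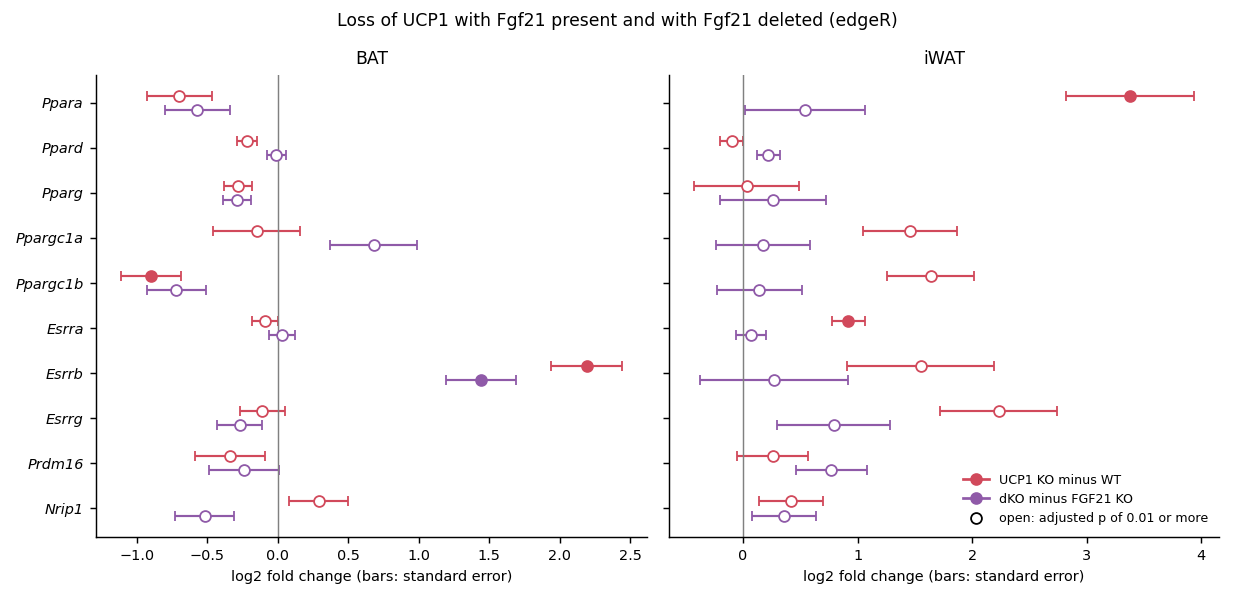
Log2 fold change (edgeR, bars are SE) of the 10 regulators on loss of UCP1, with Fgf21 present (UCP1 KO minus WT) and with Fgf21 deleted (dKO minus FGF21 KO), in BAT and iWAT. Filled points have an adjusted p under 0.01: Esrrb in both BAT comparisons, Ppargc1b in BAT with Fgf21 present, and Ppara and Esrra in iWAT with Fgf21 present.

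The 2 fat depots were compared directly, as the UCP1 KO minus WT difference in iWAT less that in BAT. Of the 10 genes 4 were called, all more positive in iWAT, against 6.3% of 17004 genes tested. Ppara differed by 4.06 (SE 0.59, adjusted p = 1.85e-05, edgeR), being lower by mean in BAT and higher in iWAT, and Ppargc1b by 2.52 (SE 0.43, adjusted p = 0.000152, edgeR), with a called fall in BAT. Esrrg differed by 2.31 (SE 0.50, adjusted p = 0.00191, edgeR) and Esrra by 0.99 (SE 0.16, adjusted p = 8.93e-05, edgeR). Esrrb, higher by mean in both depots, gave -0.68 (SE 0.66), and Ppargc1a gave 1.57 (SE 0.52, adjusted p = 0.038, edgeR).

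Targets of the receptors in iWAT of UCP1 KO against WT rose in several lists, where the median of all genes was -0.03 and 0.593% of all genes were called higher. Of 24 PPARα and PPARδ targets 7 rose and 0 fell (median 1.73), led by Cpt1b, the muscle-type carnitine acyltransferase (3.76, adjusted p = 0.00213, edgeR), which read 9.95 to 50.4 CPM in WT and 115 to 634 in UCP1 KO. Pdk4, a brake on glucose oxidation (2.94), Acot2 (2.94) and Hadhb, of mitochondrial fatty acid oxidation (2.10), followed.

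Of 20 ERR and PGC1 targets 3 rose and 0 fell (median 1.18), among them Suclg1 of the citric acid cycle (1.72) and Cox5a of cytochrome oxidase (1.41). Of 15 PPARγ targets only Gk, glycerol kinase, rose (3.53, adjusted p = 0.00064, edgeR; median 0.16), and it was also on the brown fat list. Of 9 brown fat genes 6 rose and 0 fell (median 3.53), with Elovl3 (8.39), Cidea (4.90), Dio2 (4.67), which activates thyroid hormone, and Cox7a1 (3.56) ahead.

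None of the 3 RXR genes, 14 coregulators, 7 mitochondrial transcription factors, 14 Prdm16 partners or 8 white fat genes was called in that comparison, with medians of 0.20, 0.01, 0.32, 0.01 and -0.76. The count of 16 called list genes fell to 3 on leaving out WT replicate 1, 2 or 3 and rose to 31 on leaving out UCP1 KO replicate 2. It fell to 1 with only the 2 genotypes fitted and to 4 at a muscle score at or under 7. The count rose by DESeq2 and at a lymph node score at or under 4. Against dKO, UCP1 KO iWAT gave 5 of 24 PPARα and PPARδ targets, 1 of 15 PPARγ targets (Gk), 2 of 20 ERR and PGC1 targets and 4 of 9 brown fat genes higher. That comparison called 0.437% of all genes higher. In dKO against FGF21 KO and in FGF21 KO against WT, none of the lists had a called gene in iWAT (0.0115% and 0.00575% of all genes).

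In iWAT some of the regulators varied together across libraries and others did not. Over the 20 iWAT libraries Ppara correlated with Ppargc1a at 0.92, with Esrra at 0.87 and with Ppargc1b at 0.85 (Pearson's r of log2 CPM), and Pparg with Prdm16 at 0.80. Nrip1 ranged from -0.12 with Pparg to 0.26 with Ppard. Ppard was at 0.62 with Prdm16 and 0.44 with Pparg but at 0.11 with Ppara and -0.01 with Esrra, and Pparg with Ppargc1b was at 0.06. In BAT the pairs were others: Pparg with Ppargc1b at 0.83, Ppara with Esrrg at 0.71, and Ppargc1b against Esrrb at -0.80. Ppara and Ppargc1a, tied in iWAT, had an r of -0.07 in BAT. The points share genotype, depth and tissue make-up.

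Among the tested genes that were ranked, those most like Ppara in iWAT were Acsf2 (0.98), Idh3b (0.97) and Ttc25 (0.97). Those most like Esrra were Tbrg4 (0.95), Ppif (0.93) and Mrps23 (0.92). Ppargc1a was most like Ube4b, Mrps16 and Ndufa6 (0.95 to 0.96), Ppargc1b like Traf4, Rmnd1 and Ppif (0.90 to 0.93), and Esrrg like Rab3gap1, Esrra and Phospho2 (0.86 to 0.88). Pparg was most like Agpat9, Gnb5 and Cdo1 (0.95 to 0.96), Prdm16 like Tusc5, Ccdc3 and Nepn (0.93 to 0.95), and Esrrb, Ppard and Nrip1 reached at most 0.86, 0.80 and 0.72.

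In BAT, Esrrb was most like Aldh1b1 (0.95), Otub2 (0.95) and Tm6sf1 (0.94), Ppargc1b like Vegfb (0.92), Cryl1 (0.92) and Acp6 (0.91), and Ppara like Arhgef28 (0.95), Cdh2 (0.93) and Isg20l2 (0.91). For the other 7 genes the highest r in BAT ran from 0.70 (Nrip1 with Mbd1) to 0.88 (Esrrg with Ncbp3). These rankings are over 20 libraries each.

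Liver gave no call for any of the 10 in any genotype comparison, by edgeR or DESeq2. Ppargc1a, which supports glucose output in fasted liver, was nearest: 12.7, 13.8, 15.9, 21.7 and 11 CPM in UCP1 KO against 11.8, 9, 8.88, 5.85 and 10.9 in WT (0.70, SE 0.19, adjusted p = 0.124, edgeR). The groups overlapped at 1 library of each. It was the only gene of the 10 at an unadjusted p under 0.05 in UCP1 KO against WT. That level was passed by 1470 of the 14407 genes tested, so the share is near the background, and 0.0694% were called.

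In FGF21 KO liver Esrrg was the 1 gene at an unadjusted p under 0.05 (3.07 ± 1.15 against 1.72 ± 0.539 CPM in WT). That level was passed by 1086 of the 14407 genes tested (0.229% called). For UCP1 KO against dKO there were 3 (Ppard, Esrrg and Nrip1), with 1188 of all genes at that level and 0.00694% called. For dKO against FGF21 KO there were 3 (Ppard, Ppargc1a and Esrrb), with 973 of all genes at that level and 0.00694% called. Ppard in dKO liver read 7.71, 23.4, 7.48, 9.27 and 7.64 CPM, so that replicate 2 stood far above the rest, where UCP1 KO was at 4.73 to 7.28 CPM. The interaction had 1 gene at an unadjusted p under 0.05 (Ppard, -1.09, SE 0.38), with 743 of all genes at that level and 0% called. The test over all 4 genotypes had 3 (Ppard, Ppargc1a and Esrrg), with 1669 of all genes at that level and 0.34% called. Ppara, the main PPAR of liver, was at 423 ± 105 CPM in WT, 453 ± 108 in FGF21 KO, 400 ± 78.3 in UCP1 KO and 394 ± 164 in dKO, with no detectable difference.

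Skeletal muscle likewise gave no call by either tool. At an unadjusted p under 0.05 stood 1 gene in UCP1 KO against WT (Ppargc1b, 7.45 ± 0.951 against 5.65 ± 1.39 CPM), with 1482 of the 15114 genes tested (0.0265% called). FGF21 KO against WT had 1 (Ppard, 23.1 ± 2.52 against 26.6 ± 0.987), with 1953 of all genes (0.00662% called). UCP1 KO against dKO had 1 (Ppard, 27 ± 2.65 against 23.8 ± 2.37), with 1774 of all genes (0% called). There were 0 in dKO against FGF21 KO, with 1203 of all genes (0.0595% called), and 0 in the interaction, with 1131 (0% called). Over all 4 genotypes there was 1, Ppard, with 2470 of all genes (0.086% called). Ppargc1a in muscle was at 71.9 ± 23.1 CPM in WT and 63.8 ± 10.6 in UCP1 KO, 76.8 ± 22.8 in FGF21 KO and 57.2 ± 15.1 in dKO. Esrra was at 71.7 ± 10.2 CPM in WT, 77.1 ± 10.7 in UCP1 KO, 69.8 ± 11.1 in FGF21 KO and 66 ± 7.83 in dKO. The changes of Esrrb, Ppara and Esrra seen in fat had no called counterpart in muscle, where Esrrb was at 5.05 ± 0.537 CPM in UCP1 KO and 5.47 ± 2.68 in WT.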

How the data were processed

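Poly(A) RNA from 4 tissues of 4 genotypes (5 libraries per group, 80 in all) was sequenced from a stranded kit. The authors used STAR to align reads to mm10 and HTSeq-count for gene-level counting, and the deposited tables hold raw counts for 32764 named genes. 1 row without a gene name, at most 3.42e-05% of a library, was left out. Groups came from the tissue and genotype labels, and replicate numbers were given in accession order and only name a library. No 2 libraries of a tissue were identical (760 pairs).

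Within each tissue, genes with a maximum count above 15, a sum above 75 and at most 10 libraries at 0 were kept, as in the study. edgeR 4.0.16 (R 4.3.3, limma 3.58.1) with TMM factors and a quasi-likelihood F test was fitted over all 20 libraries with 4 genotype means, or over the 20 WT libraries with 4 tissue means, and p-values were Benjamini-Hochberg adjusted over all genes tested. The depot comparison was fitted over all libraries of both fat depots, with a mean for each depot and genotype. Its contrast took the WT and UCP1 KO means. Log2 CPM used a prior count of 2, and marker scores were mean log2(CPM + 0.1). Gene positions and exon lengths came from GENCODE (GRCm38) and approximate the authors' gene models. Alternatives were DESeq2 1.42.0, other scaling, filters, covariates, thresholds and leaving out each library. The scripts were tested on simulated data. Named list genes were, per list, the called genes with the 4 largest changes in UCP1 KO against WT in BAT or iWAT, of which 1 is not reported here. The genes most alike were the 3 with the highest Pearson's r among genes with a mean of at least 1 CPM. Symbols of the Gm, LOC, AI, AW, BC, Mir and Rik types were left out of that ranking. The members and lists were chosen with earlier results of these data known.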

Additional observations from a re-analysis of the deposited data

Results flagged for a closer look

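In 160 groups of 5 libraries (10 genes, 4 tissues, 4 genotypes), a library stood apart from the other 4 by a gap of over 0.71 of the group's range in 15 on the CPM scale, 7 of them also on the log2 scale of CPM + 0.1. Chance gives about 1 in 20 groups such a library. Of the 7 on both scales, 5 were of Ppard: the lowest library of dKO iWAT at 29 CPM (group median 34.6), the highest of WT liver at 9.74 (6.61), the highest of dKO liver at 23.4 (7.71), the lowest of UCP1 KO muscle at 22.4 (27.9) and the lowest of dKO muscle at 19.7 (24.7). The other 2 were Ppargc1a in dKO muscle, with a highest library of 84 CPM (51.3), and Nrip1 in dKO BAT, with 8.02 CPM (5.78). On the CPM scale alone, FGF21 KO iWAT had high libraries for Ppara (28.2, median 8.45), Pparg (386, median 93.3) and Ppargc1a (16.7, median 6.64), all replicate 2, the only FGF21 KO library with a low lymph node score (0.278, against 6.93 to 7.32). Esrra in WT iWAT had a high library of 35.1 CPM (25.4), replicate 5, with a muscle score of 9.46. The remaining 4 were high libraries of Ppargc1a in FGF21 KO liver (13.5, median 8.4), Esrrb in dKO liver (1.6, median 0.752), Esrrg in UCP1 KO muscle (31.4, median 18.1) and Prdm16 in dKO muscle (9.57, median 4.65).

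The effect of UCP1 loss differed between the fat depots, tested by edgeR as the iWAT difference less the BAT difference, for Ppara (4.06 on the log2 scale), Ppargc1b (2.52), Esrrg (2.31) and Esrra (0.99). Ppara was higher in 5 of 5 UCP1 KO iWAT libraries and lower in 5 of 5 UCP1 KO BAT libraries than any WT library of the same depot. The BAT difference of Ppara was not called on its own. Muscle and lymph node markers differed between libraries of both depots, and their part in the depot difference was not tested.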

How the results depend on the processing

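No paired analysis was possible because the labels carry no replicate numbers (those used here only name libraries, in accession order) and tie no libraries to a shared mouse. Of 60 results for named regulators, 0 reversed direction under any alternative run. The 33 counts over comparisons have no direction and could only stay or move. In BAT, UCP1 KO against WT (2 called) gave 5 at an adjusted p under 0.05 and 1 with only the 2 genotypes compared, where Ppargc1b had an adjusted p of 0.0109 by edgeR, and the 34 called list genes became 22 with only those genotypes. dKO against FGF21 KO (1) gave 3 at 0.05, 2 by DESeq2, 2 with only those genotypes and 3 at a muscle score at or under 7. The test over 4 genotypes (2) gave 5, 4 by DESeq2, which called 5964 of 15713 genes, and 4 at a muscle score at or under 7. In iWAT, UCP1 KO against WT (2) gave 4 at 0.05, 5 by DESeq2, 0 with only the 2 genotypes, 1 at a muscle score at or under 7 and 4 at a lymph node score at or under 4. Its 16 called list genes became 32, 41, 1, 4 and 44 under the same settings and 41 with a covariate for the lymph node score. UCP1 KO against dKO in iWAT (1) gave 4 at 0.05, 4 by DESeq2, 3 with that covariate, 0 with only the 2 genotypes and 2 at a low lymph node score, and the interaction (0) gave 1 by DESeq2. Of all genes, DESeq2 called 30.3% and 19.5% in the first 2 BAT comparisons and 3.49%, 3.13% and 0.363% in the 3 iWAT ones. The score limits called 11.9% for dKO against FGF21 KO in BAT and 3.73% for UCP1 KO against WT in iWAT at a low lymph node score. Counts at the other settings are given without a share of all genes and cannot be read against a background.

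Leaving out each library gave 2 to 3, 1 to 2 and 2 to 3 calls in those 3 BAT comparisons and 27 to 45 list genes. In iWAT it gave 0 to 2 for UCP1 KO against WT, 3 to 31 list genes, 0 to 4 for UCP1 KO against dKO and 2 to 5 over 4 genotypes. The BAT count for dKO against FGF21 KO was 2 without UCP1 KO replicate 3 or 5. In iWAT the list count was 3 without WT replicate 1, 2 or 3, 6 without WT replicate 4 or 5, 7 without UCP1 KO replicate 4 or 5, 8 without UCP1 KO replicate 3, 10 without FGF21 KO replicate 1 and 31 without UCP1 KO replicate 2. The count against dKO was 4 without UCP1 KO replicate 2 and 2 without FGF21 KO replicate 2, and the count over 4 genotypes was 2 without WT replicate 1, UCP1 KO replicate 3, 4 or 5, or FGF21 KO replicate 1, 3, 4 or 5. In WT it gave 7 to 8 for BAT against muscle and 8 to 10 for iWAT against liver, and the depot comparison 4 to 5. Of the 60 results 56 kept their call in every such fit, the exceptions being Ppara and Esrra in iWAT and Esrrg in iWAT against liver (lost without iWAT replicate 3 or liver replicate 1, 2 or 3). With all 80 libraries in the fit, Ppard in WT BAT was no longer called against iWAT (0.33, adjusted p = 0.0612, edgeR) or muscle (-0.33, adjusted p = 0.0565, edgeR). The 2 fits limited by marker scores were chosen after the data were seen. With 5 libraries per group and wide spread in iWAT, a missed threshold there does not show that levels are alike. The causes of these shifts were not tested.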
